A study of Mus musculus with 23 samples.

Results

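Il17b, Reln and Camk4 are 3 genes whose transcripts stood far above the luminal level in the stem cell fraction of the mouse mammary gland. They were chosen from the values analysed here, as among the genes furthest above luminal cells in the stem fraction at every stage. They are 3 of the 15378 genes that passed a filter on low values, out of 18193 genes named on the array, and all 3 passed it. Because the differences between stem and luminal cells chose them, those differences are given below as a description, with no test. Of 8 probe sets whose only gene symbol is one of the 3, Il17b had 1, Reln 2 and Camk4 5, and each gene was read from its probe set with the highest mean.

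The study hybridised biotinylated cRNA to 23 Affymetrix arrays, each from 1 of 3 epithelial cell types purified from the glands of C57BL/6 females, which are inbred mice. There were 8 arrays of stem cells, 8 of mature luminal cells and 7 of luminal progenitors. The stages covered virgins at 3 and 9 weeks of age, pregnant mice at days 10, 16 and 19, and retired breeders, whose age the labels do not give and whose earlier pregnancies cannot be told apart from age. For day 19 the only array held mature luminal cells. No transgene, treatment or genotype other than the strain is labelled. Pairs of arrays exist for stem cells of 3 weeks, 9 weeks and day 10, for mature luminal cells of 9 weeks and day 10, and for luminal progenitors of 3 and 9 weeks, and the other 9 groups have 1 array. The labels name neither the sorting gates nor whether arrays of a group came from separate animals, so the p-values measure only the spread between these arrays, which may be technical.

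IL-17B, the product of Il17b, is a secreted cytokine of the interleukin-17 family that signals through a receptor containing IL-17RB. Reelin, the product of Reln, is a large secreted glycoprotein of the extracellular matrix. It binds the lipoprotein receptors VLDLR and ApoER2, the product of Lrp8, and thereby leads Src-family kinases to phosphorylate the adaptor DAB1. It is best known for guiding neurons in the developing brain. Camk4 codes for a kinase that calcium-loaded calmodulin and the kinases CAMKK1 and CAMKK2 switch on and that phosphorylates the transcription factor CREB1 in the nucleus, with known roles in neurons and T cells. In the mammary gland the basal layer around the luminal cells holds contractile myoepithelial cells and cells with stem activity, and stem fractions are usually sorted from it.

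Reln (gene identifier 19699) lies at chr5:21884454-22344705 of GRCm38.p6, the build of the RefSeq tables used here. Only Reln had a promoter window among the sequences used here, so none is shown for Il17b and Camk4. The window just upstream of the Reln start is rich in CpG and is shown because the series is concerned with DNA methylation. It covers chr5:22344706-22344955 of GRCm38.p6 on the minus strand, 250 bases, printed 5′ to 3′ with matches to the GC box GGGCGG and to the E-box CACGTG in capitals, searched on both strands.
Reln: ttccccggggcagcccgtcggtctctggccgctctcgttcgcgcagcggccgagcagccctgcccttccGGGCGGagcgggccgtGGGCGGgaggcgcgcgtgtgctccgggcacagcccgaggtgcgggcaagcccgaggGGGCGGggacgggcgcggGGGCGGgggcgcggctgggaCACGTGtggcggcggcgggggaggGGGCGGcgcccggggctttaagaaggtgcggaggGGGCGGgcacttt
The window was 80.0% G or C and held 37 CpG dinucleotides, against medians of 52.4% and 6 over 32851 RefSeq promoter windows of the same length. It held 6 GC boxes, a motif found at least once in 32.7% of all windows, and 1 E-box, found in 6.0%. The motifs do not overlap each other here. Methylation was not measured on these arrays, and the matches describe letters only.

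In the same build Il17b (gene identifier 56069) lies at chr18:61687935-61692538 and Camk4 (gene identifier 12326) at chr18:32934941-33195767.

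Of the 10 basal and myoepithelial markers, 7 were higher in stem cells than in luminal progenitors and 9 were higher than in mature luminal cells by limma, with 4.38% (3.6% higher, 0.78% lower) and 8.34% (6.78% higher, 1.56% lower) of all genes passing in these comparisons. Krt5, Krt14 and Acta2 were among the markers that passed in both comparisons. Of the 10 luminal markers 1 was lower in stem cells than in luminal progenitors and 2 were lower than in mature luminal cells, with 0 of 10 estimates above 0. All 10 stood above the array median on every stem array. Their mean was 9.75 to 11.77 on stem, 10.96 to 12.32 on luminal progenitor and 11.40 to 12.13 on mature luminal arrays. Blood endothelial markers were higher in stem cells for 5 of 10 against luminal progenitors and for 7 of 10 against mature luminal cells. Of the stromal markers 5 of 8 were higher in stem than in mature luminal cells and 1 of 8 higher than in luminal progenitors, and of the lymphatic markers 3 of 5 and 1 of 5 were. The blood endothelial mean ran from 5.99 to 11.28 on stem arrays, 5.001 to 7.89 on mature luminal arrays and 5.36 to 7.76 on luminal progenitor arrays, and none of the 10 was at 0 on any array. Fibroblast and stromal markers averaged 10.19 on the luminal progenitor array of day 10 and 10.52 on that of day 16, 6.88 to 9.39 on the other luminal progenitor arrays, 7.61 to 9.24 on stem arrays and 4.02 to 7.55 on mature luminal arrays. The Gapdh control probe sets, which read the 3′ and the 5′ end of that transcript, differed by 5.16 log2 units on the 3-week mature luminal array, by 3.77 for retired breeder stem cells and by at most 2.72 elsewhere, always with the 3′ end higher.

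Il17b was highest in stem cells of pregnant glands. In stem cells its log2 level was 7.06 and 7.58 at 3 weeks, 8.33 and 10.04 at 9 weeks, 10.52 and 11.84 at day 10, 12.11 at day 16 and 9.40 in retired breeders. In mature luminal cells it was 3.85 at 3 weeks, 3.27 and 0.46 at 9 weeks, 3.60 and 7.23 at day 10, 4.79 at day 16, 2.37 at day 19 and 5.63 in retired breeders. In luminal progenitors it was 6.57 and 5.42 at 3 weeks, 5.74 and 4.06 at 9 weeks, 7.99 at day 10, 9.86 at day 16 and 5.49 in retired breeders. All 8 stem arrays lay above the median of their own array, as did 3 of 8 mature luminal and 6 of 7 luminal progenitor arrays. The groups overlapped, because 4 of the 8 stem arrays were below the day-16 luminal progenitor array. Those 4 were the 3-week pair, one of the 9-week pair and the retired breeder array. In bulk samples such as these, fewer cells of a type and less RNA per cell cannot be told apart.

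Reln had a similar outline, with its highest values in stem cells of pregnant glands. In stem cells its log2 level was 8.92 and 8.63 at 3 weeks, 9.95 and 10.91 at 9 weeks, 11.94 and 11.68 at day 10, 12.08 at day 16 and 10.33 in retired breeders. In mature luminal cells it was 6.37 at 3 weeks, 3.36 and 3.46 at 9 weeks, 3.64 and 7.48 at day 10, 4.56 at day 16, 3.03 at day 19 and 6.56 in retired breeders. In luminal progenitors it was 7.23 and 7.92 at 3 weeks, 6.12 and 5.59 at 9 weeks, 8.30 at day 10, 10.41 at day 16 and 6.96 in retired breeders. All stem and all luminal progenitor arrays were above their own median for Reln, and 3 of 8 mature luminal arrays were. The groups overlapped here too, because the 3-week pair, one of the 9-week pair and the retired breeder array, 4 of the 8 stem arrays, were below the day-16 luminal progenitor array. The second Reln probe set stayed below the median of the array on all 23 arrays, between 0 and 2.77, and carried no pattern.

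Camk4 had its highest stem mean already at 3 weeks. In stem cells its log2 level was 9.61 and 10.05 at 3 weeks, 6.20 and 9.55 at 9 weeks, 8.42 and 9.14 at day 10, 9.81 at day 16 and 9.14 in retired breeders. In mature luminal cells it was 8.32 at 3 weeks, 4.57 and 4.36 at 9 weeks, 4.76 and 5.40 at day 10, 3.55 at day 16, 4.86 at day 19 and 4.44 in retired breeders. In luminal progenitors it was 5.41 and 5.06 at 3 weeks, 4.54 and 3.62 at 9 weeks, 5.18 at day 10, 7.39 at day 16 and 5.52 in retired breeders. Only 1 stem array, replicate 1 of 9 weeks at 6.20, lay among the luminal values, whose highest were the 3-week mature luminal array at 8.32 and the day-16 luminal progenitor array at 7.39.

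**Figure D1:**
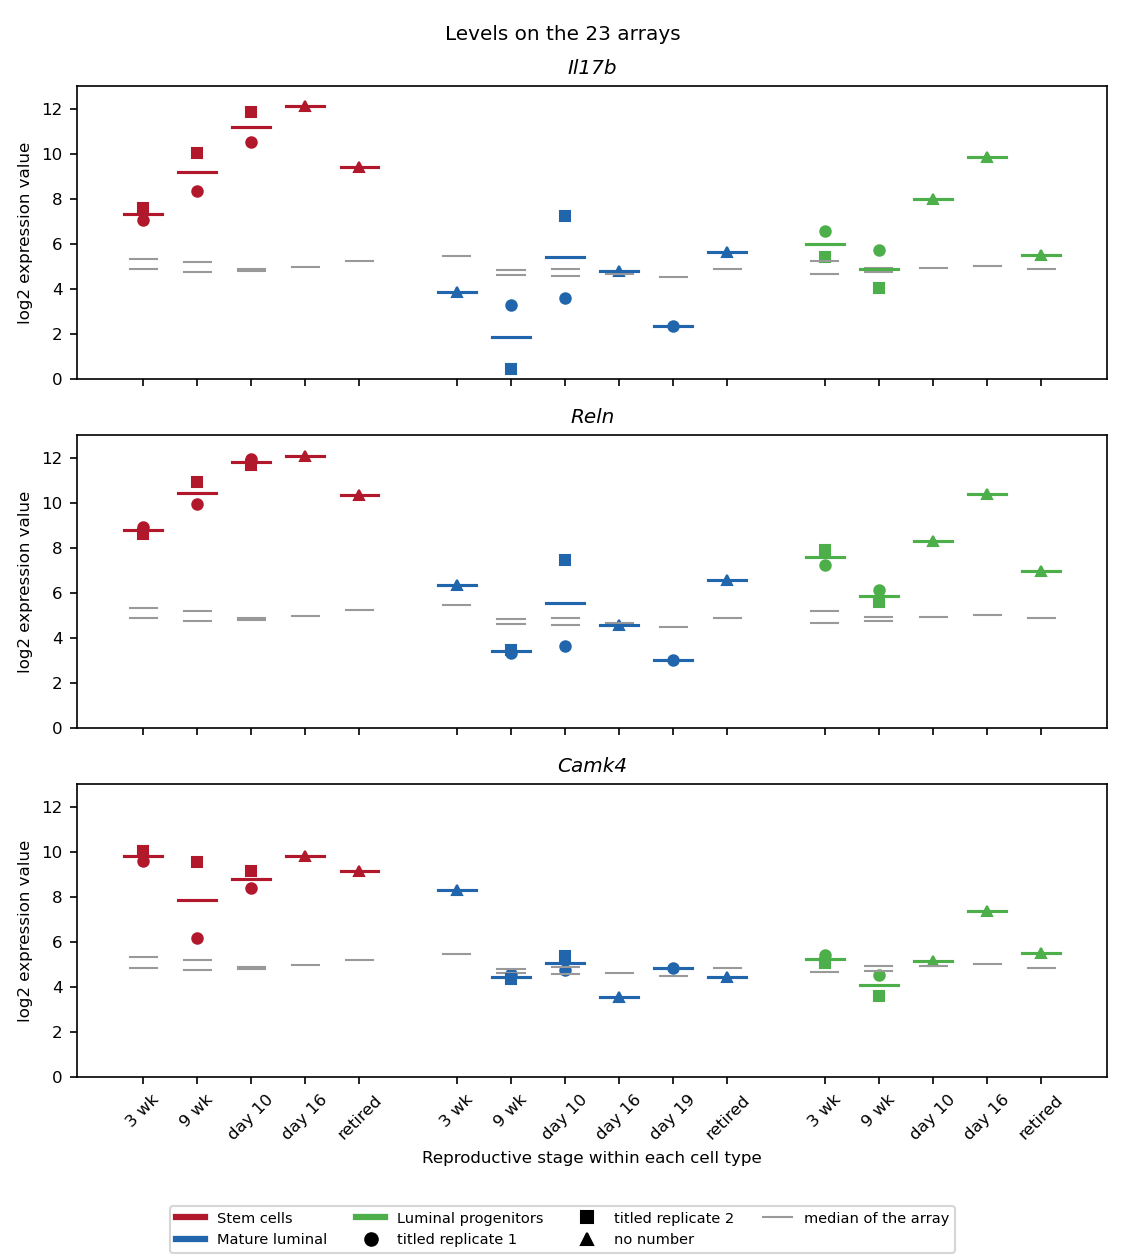
Log2 expression value of Il17b, Reln and Camk4 on each of the 23 arrays, by cell type and stage; symbols show the replicate number in the array's title, thick lines the group means and grey lines the median of each array. Il17b and Reln reach 12.11 and 12.08 in day-16 stem cells, and Camk4 has its lowest stem value, 6.20, at 9 weeks.

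The 5 Camk4 probe sets did not read alike. The one used ran from 6.20 to 10.05 in stem cells, with a median of 9.35. Another 3, with stem medians of 6.72, 5.63 and 6.75, also had higher average values in stem than in luminal cells, by 2.65, 2.12 and 3.44 over mature luminal cells and by 2.32, 2.29 and 2.55 over luminal progenitors. The fifth stayed below the median of the array on all 23 arrays. On the 3-week mature luminal array, where the probe set used gave 8.32, the other 4 gave 4.79, 5.56, 5.17 and 3.92, against an array median of 5.47.

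With each of the 5 stages measured in all 3 cell types given the same weight, Il17b was at 9.84 in stem cells and at 4.31 in mature luminal cells, a difference of 5.53 ± 0.67 log2 (SE). Its stem level lay 2.99 ± 0.67 above the 6.85 of luminal progenitors. For Reln the means were 10.69 in stem cells, 5.29 in mature luminal cells and 7.82 in luminal progenitors, with differences of 5.39 ± 0.52 and 2.87 ± 0.52. For Camk4 they were 9.09, 5.17 and 5.48, in the same order of cell types, with differences of 3.92 ± 0.49 and 3.61 ± 0.49. On these averages Il17b and Reln stood further above mature luminal cells than above luminal progenitors. Mature luminal cells minus luminal progenitors gave -2.54 ± 0.70 for Il17b and -2.53 ± 0.54 for Reln. The confidence intervals were -4.06 to -1.02 and -3.70 to -1.36. Neither gene passed after adjustment over all genes (limma adjusted p = 0.322 and 0.115), which does not show that the luminal types are alike. In retired breeders Il17b stood 3.91 above luminal progenitors and 3.77 above mature luminal cells. Camk4 stood about as far above both on average, but not at each stage. Its gaps over luminal progenitors and mature luminal cells were 4.595 and 1.51 at 3 weeks, and 2.42 and 6.26 at day 16.

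The size of the gap differed between stages. Il17b stood 7.32 above mature luminal cells at 9 weeks and at day 16, and 3.47 at 3 weeks and 3.77 in retired breeders. Reln followed with 7.02 at 9 weeks and 7.52 at day 16, and with 2.41 at 3 weeks and 3.77 in retired breeders. Against luminal progenitors the gap of Reln was 4.58 at 9 weeks and 1.67 at day 16, where the luminal progenitor array read 10.41. Camk4 had its smallest gap over mature luminal cells at 3 weeks, 1.51, and its largest at day 16, 6.26.

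**Figure D2:**
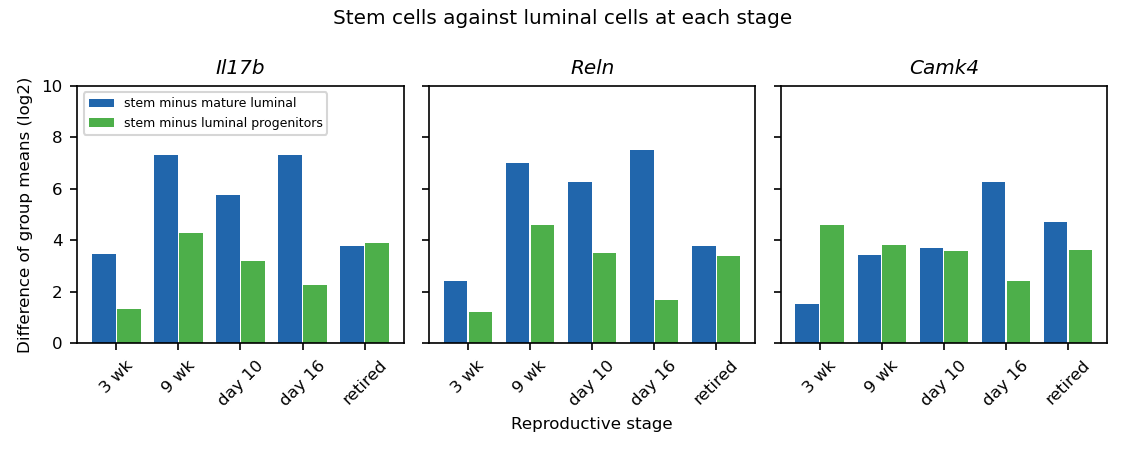
Difference of group means in log2 units, stem minus mature luminal cells and stem minus luminal progenitors, for Il17b, Reln and Camk4 at the 5 stages measured in all 3 cell types; groups hold 1 or 2 arrays and the bars carry no error. All 30 differences are above 0, as the choice of the genes required, and the smallest is 1.20 for Reln against luminal progenitors at 3 weeks.

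The choice of the 3 genes had no numerical threshold. Ranked by the smallest of the 10 differences over stages and luminal types, Camk4 was at place 44 with 1.51, Il17b at 59 with 1.32 and Reln at 82 with 1.20 among 15378 genes, of which 760 had all 10 differences above 0. The first places went to Spon2, which codes for the matrix protein spondin 2, to the collagen gene Col18a1, to Vwa1 and to the smooth muscle actin Actg2, with smallest differences of 2.52, 2.48, 2.48 and 2.48 in that order. Places 5 to 12 were held by Col6a4, Trpv4, Gm19935, Apoe, Igfbp2, Myh11, Ecrg4 and Hspg2. By the average difference from mature luminal cells Il17b was at place 2, behind Actg2, with Reln at 4 and Camk4 at 74. From luminal progenitors the places were 58, 86 and 9 in the same order.

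Most neighbours in the order of the 16 group means did not differ beyond the spread of a gene's arrays. That spread, the residual SD over the 7 pairs, was 1.47 log2 for Il17b, 1.09 for Reln and 0.98 for Camk4. Single pairs weighed heavily in it. For Reln the day-10 mature luminal pair had an SD of 2.72 and the other pairs at most 0.68. For Camk4 the 9-week stem pair had 2.37 and the others at most 0.65. For Il17b the mature luminal pairs of day 10 and 9 weeks had 2.57 and 1.99. The standard errors draw on this spread too. For Il17b the order ran from day-16 stem cells (12.11) over day-10 stem cells (11.18), day-16 luminal progenitors (9.86), retired breeder stem cells (9.40) and 9-week stem cells (9.19) to the lowest mean, in 9-week mature luminal cells (1.87). Only 1 of its 15 steps exceeded 1 residual SD. For Reln 3 of 15 steps did, namely those below day-10 stem cells (11.81), below retired breeder stem cells (10.33) and below day-16 mature luminal cells (4.56). For Camk4 1 of 15 did, the step from day-16 luminal progenitors (7.39) to retired breeder luminal progenitors (5.52), which separates all 5 stem groups, 3-week mature luminal cells and day-16 luminal progenitors from the remaining 9 groups.

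Comparisons of stages within a cell type, and of the 2 luminal types, did not enter the choice and were tested with limma over all genes. In stem cells at 9 weeks against 3 weeks, Il17b was 1.87 ± 1.23 log2 higher (adjusted p = 1, 95% interval -0.82 to 4.55) and Reln 1.66 ± 0.95 higher (adjusted p = 1, -0.42 to 3.73). Camk4 was at -1.96 ± 0.90 (adjusted p = 0.926, -3.92 to 0.01). None of the 3 passed, and neither did any other gene, since limma called 0 of 15378 (0%) with 831 at an unadjusted p under 0.05. With the replicate number in the titles as a block, which pairs the arrays, 32 genes passed and the 3 genes did not. Within replicate 1 and within replicate 2 the difference was 1.27 and 2.46 for Il17b, 1.03 and 2.28 for Reln, and -3.41 and -0.50 for Camk4. Camk4 was at -0.28 without replicate 1 of the 9-week stem cells and at -3.63 without replicate 2.

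Stem cells of day 10 were compared with those of 9 weeks, with 2 arrays on each side. The differences were 1.995 ± 1.23 for Il17b (adjusted p = 0.641, 95% interval -0.69 to 4.68), 1.38 ± 0.95 for Reln (adjusted p = 0.685, -0.69 to 3.45) and 0.91 ± 0.90 for Camk4 (adjusted p = 0.79, -1.06 to 2.87) by limma. None passed, in a comparison in which 0.0585% of genes did (9 of 15378), or 141 under the block over all arrays. Within replicate 1 and replicate 2 the difference was 2.19 and 1.80 for Il17b, 1.99 and 0.77 for Reln, and 2.22 and -0.41 for Camk4. The Camk4 value turned to -0.77 without replicate 1 of the 9-week stem cells, the array at 6.20.

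Day-16 stem cells, measured on 1 array, had the highest Il17b and Reln values of all arrays. Against 9 weeks the differences were 2.92 ± 1.51 for Il17b (limma adjusted p = 0.56, 95% interval -0.37 to 6.22), 1.65 ± 1.16 for Reln (adjusted p = 0.651, -0.89 to 4.19) and 1.93 ± 1.10 for Camk4 (adjusted p = 0.585, -0.47 to 4.34). None passed, in a comparison in which 9 of 15378 genes did (0.0585%), or 94 under the block. Camk4 was at 0.26 without replicate 1 of the 9-week stem cells and at 3.61 without replicate 2. Retired breeder stem cells, also 1 array and the one with a Gapdh excess of 3.77, read close to 9 weeks for the secreted factors. Their differences were 0.21 ± 1.51 for Il17b (limma adjusted p = 0.993, -3.08 to 3.51) and -0.10 ± 1.16 for Reln (adjusted p = 0.996, -2.64 to 2.44), and Camk4 was at 1.27 ± 1.10 (adjusted p = 0.974, -1.14 to 3.67). No gene passed there by limma (0%), with 351 at an unadjusted p under 0.05. The intervals are wide enough to hold changes of several fold in either direction for Il17b and Reln.

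Marker levels of the basal layer and of other cells moved over the same stem arrays. The mean of the 10 basal markers was 9.71 and 10.90 at 3 weeks, 10.51 and 12.39 at 9 weeks, 11.70 and 12.15 at day 10, 12.79 at day 16 and 11.84 in retired breeders. The mean of the 10 blood endothelial markers was 10.96 and 11.28 at 3 weeks, 9.59 and 9.27 at 9 weeks, 5.99 and 6.32 at day 10, 6.81 at day 16 and 8.31 in retired breeders. The 5 lymphatic endothelial markers on the array ran from 10.63 and 10.11 at 3 weeks to 5.31 at day 16. Reelin is also known from lymphatic vessels. Reln correlated with the lymphatic mean at -0.94 over the 8 stem arrays and at 0.66 over the 15 luminal arrays. With the blood endothelial mean its correlation over the 15 luminal arrays was 0.71. Over the 8 stem arrays Il17b correlated at 0.90 with the basal mean and at -0.90 with the blood endothelial mean, and Reln at 0.81 and -0.95. Camk4 correlated at 0.29 with the basal mean, 0.09 with the endothelial mean and -0.78 with the mean of the 10 luminal markers. These correlations are descriptions over arrays that share stages and preparation, and the part of the marker changes in the stage differences was not tested.

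**Figure D3:**
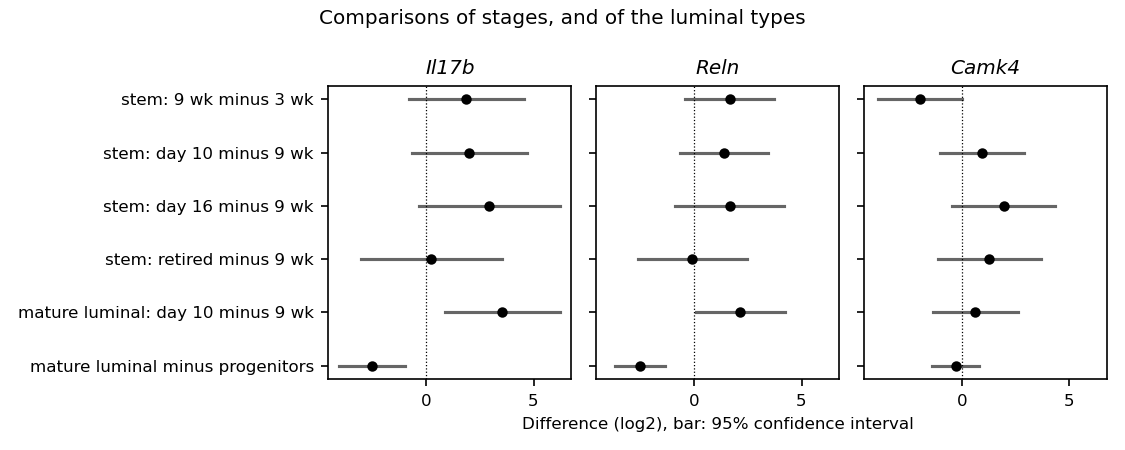
Differences in log2 units with 95% confidence intervals from the limma model for Il17b, Reln and Camk4, for 4 comparisons of stages in stem cells, 1 in mature luminal cells and for mature luminal cells minus luminal progenitors. For Il17b and Reln the intervals lie below 0 in the last comparison and above 0 for day 10 minus 9 weeks in mature luminal cells, and none passed after adjustment over 15378 genes.

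Mature luminal cells of day 10 were compared with those of 9 weeks, with 2 arrays on each side. Il17b was 3.55 ± 1.23 higher (limma adjusted p = 0.324, 95% interval 0.86 to 6.24), Reln 2.15 ± 0.95 (adjusted p = 0.521, 0.08 to 4.22) and Camk4 0.61 ± 0.90 (adjusted p = 0.999, -1.35 to 2.58). None passed, while 0.449% of all genes did (69, or 506 under the block). The pairs differed. Within replicate 2 the difference was 6.77 for Il17b and 4.02 for Reln, and within replicate 1 it was 0.33 and 0.28. Without day-10 replicate 2 the fitted difference was 1.73 for Il17b and 0.23 for Reln, and without day-10 replicate 1 it was 5.37 and 4.07. On day-10 replicate 2 the basal marker mean was 9.45 and the stromal mean 6.33, and on replicate 1 they were 7.51 and 4.11. The pericyte mean was 6.16 on replicate 2 and 3.26 on replicate 1. For T cell and leukocyte markers the means were 5.45 and 3.57, and for blood endothelial markers 6.25 and 5.05, in that order. The luminal, luminal progenitor and nerve means were slightly lower on replicate 2. The part of these markers in the difference was not tested. The difference between stem and mature luminal cells in this stage comparison was tested as an interaction and did not pass, with interaction terms of -1.55 ± 1.74 for Il17b, -0.77 ± 1.34 for Reln and 0.29 ± 1.27 for Camk4 (limma adjusted p = 0.941, 0.963 and 0.985). For that term 0 genes passed in limma, with 869 at an unadjusted p under 0.05, and 1 gene under the block over all arrays. The interaction intervals ran from -5.36 to 2.25, from -3.70 to 2.16 and from -2.48 to 3.06, in the same order.

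The 2 luminal types were compared over 5 stages. Reln averaged 5.29 in mature luminal cells and 7.82 in luminal progenitors, a difference of -2.53 ± 0.54 with a limma adjusted p of 0.115. With the replicate block over all arrays it was -2.40 and passed (adjusted p = 0.0383). Leaving out either array of the day-10 mature luminal pair also made it pass, but this drops the widest pair spread of Reln, an SD of 2.72. The Reln difference was then -2.14 without replicate 1 and -2.91 without replicate 2. Its adjusted p ran from 0.0124 to 1 over the fits that left out 1 array, and 21 of these 23 did not pass. With the block on the 14 numbered arrays alone, where 9 weeks is the stage left, it was -2.45 at an adjusted p of 0.69. Il17b averaged 4.31 in mature luminal cells and 6.85 in luminal progenitors, a difference of -2.54 ± 0.70 (adjusted p = 0.322), and Camk4 was at -0.31 ± 0.51 (adjusted p = 1). Of all genes 0.124% passed, 19 of them, or 126 under the block. By stage the Reln difference was -1.21 at 3 weeks, -2.44 at 9 weeks, -2.74 at day 10, -5.85 at day 16 and -0.40 in retired breeders. The luminal progenitor arrays of day 10 and of day 16, with the highest luminal Il17b and Reln, had basal marker means of 10.04 and 11.00, where the other luminal progenitor arrays had 7.12 to 9.17. No basal marker passed between the luminal types (0 of 10 by limma), with a list median of -0.81 and 2 of 10 estimates above 0. Since 0.124% of all genes passed, a count of 0 in 10 does not set the basal list apart. Of the stromal markers 3 of 8, Col1a1, Lum and Cd248, passed as lower in mature luminal cells, with a list median of -3.96. Whether basal or stromal cells in these preparations took part was not tested. Over the 15 luminal arrays Reln correlated at 0.75 with the basal mean and at 0.91 with the stromal mean, and Il17b at 0.83 and 0.76.

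**Figure D4:**
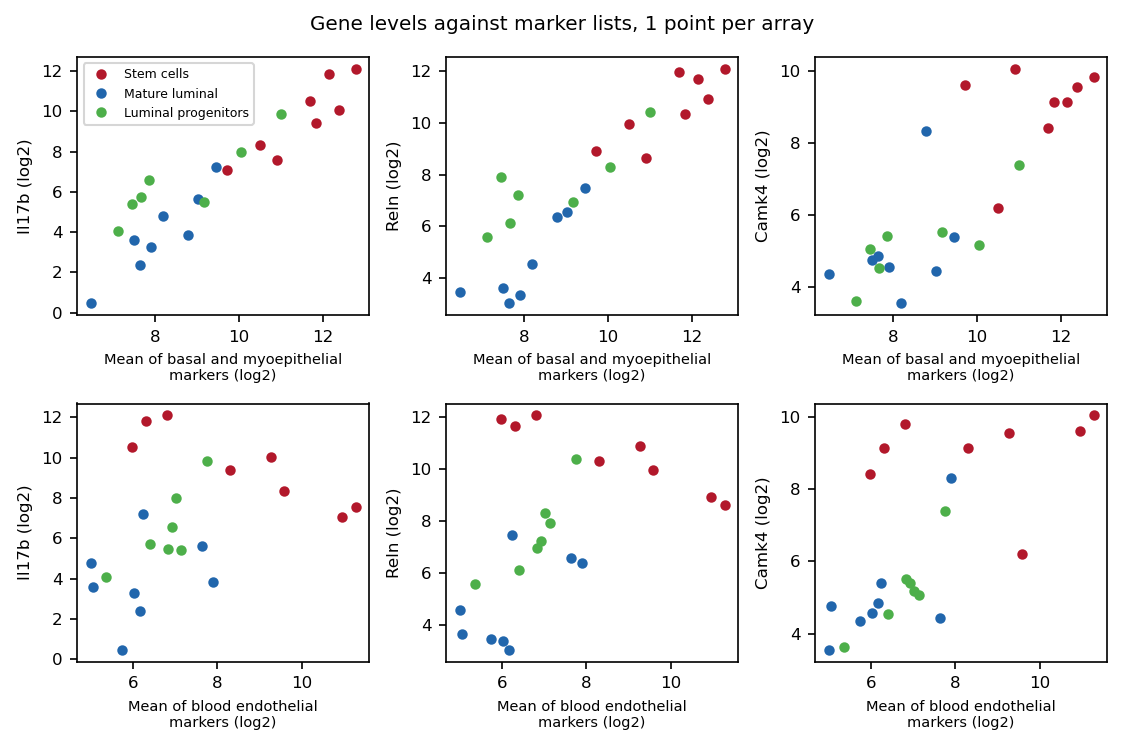
Log2 level of Il17b, Reln and Camk4 on each of the 23 arrays against the mean log2 level of 10 basal and myoepithelial markers (top) and of 10 blood endothelial markers (bottom), coloured by cell type. Over 23 arrays Il17b and Reln correlated with the basal mean at 0.93 and 0.90. The choice of genes high in stem cells favours such values, because the basal markers are also higher there. Among stem arrays Il17b and Reln lie lower where the endothelial mean is higher.

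Genes with the most similar pattern were named by the Pearson correlation over the 16 group means, a description over points that share cell type. Among all genes kept, Reln was the nearest to Il17b and Il17b the nearest to Reln (r = 0.97, and 0.96 over 23 arrays). Il17b was followed by Tagln, which codes for the smooth muscle protein transgelin (0.96), by the smooth muscle actin Actg2 (0.96), by Spon2 (0.95) and by Postn, the gene of the matrix protein periostin (0.94). Reln was followed by Postn (0.97), the secreted Wnt inhibitor Wif1 (0.97), the collagen Col14a1 (0.96) and the matrix gene Frem2 (0.96). Camk4 had other neighbours. They were Chst15, a chondroitin sulfate sulfotransferase (0.98), the semaphorin Sema6d (0.96), the phosphatase Ptpn14 (0.96), the adhesion molecule Sdk2 (0.96) and the CTP synthase gene Ctps (0.94, and 0.77 over 23 arrays). The correlation of Camk4 was 0.70 with Il17b and 0.79 with Reln.

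Neither receptor gene of IL-17B passed between stem and luminal cells by limma. Il17rb ran from 4.47 to 7.48 on stem arrays, 4.0 to 6.67 on mature luminal and 4.65 to 6.34 on luminal progenitor arrays, and it exceeded the array median on 5 stem and 11 luminal arrays. Stem cells differed from mature luminal cells by 0.58 ± 0.40 (limma adjusted p = 0.446) and from luminal progenitors by 0.38 ± 0.40 (adjusted p = 0.661). Il17ra, the shared subunit of the family's receptors, was at 8.67 in stem cells, against 8.48 in mature luminal cells and 8.45 in luminal progenitors, with differences whose 95% intervals were -0.42 to 0.79 and -0.39 to 0.82. Of the 12 other genes of the family and its adaptors, 10 were on the array and 8 passed the filter, and limma called 0 of 8 in either comparison, where 8.34% and 4.38% of all genes passed, too few for a count of 0 in 8 genes to set the family apart. Their median difference was 0.11 against mature luminal cells and 0.21 against luminal progenitors, where all genes had -0.03 and 0.04. The smallest adjusted p belonged to the ligand Il17d, at 1.34 ± 0.38 over mature luminal cells (0.0523) and 1.10 ± 0.38 over luminal progenitors (0.141), and it exceeded the array median on 4 stem and 0 luminal arrays. Under the block over all arrays Il17d passed as higher, and the receptor Il17re as lower, in stem than in mature luminal cells, and with the block on the 14 numbered arrays neither did. Il17d also passed over mature luminal cells without both arrays of large Gapdh excess, and over both luminal types when low values were raised to the array median. Next in line were Il17rc against luminal progenitors (0.73, adjusted p = 0.259) and Il17re against mature luminal cells (-1.30, adjusted p = 0.232).

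Among the genes around reelin, the receptor Vldlr was higher in stem cells. It averaged 9.95 in stem cells, 7.90 in mature luminal cells and 8.82 in luminal progenitors. The difference of 2.05 ± 0.33 from mature luminal cells passed (limma adjusted p = 0.00255), and that of 1.13 ± 0.33 from luminal progenitors did not (adjusted p = 0.0763, and 0.0236 under the block). All 6 Vldlr probe sets had positive differences from mature luminal cells, from 1.29 to 2.17, and 3 of them passed when all probe sets were tested. The other reelin receptor, Lrp8, was at 7.40, 6.48 and 7.04 in the same order and did not pass. Dab1, the adaptor both receptors need in neurons, exceeded the array median on 1 of 23 arrays.

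Of the 16 genes of that list, all kept, 3 were higher and 0 lower in stem than in mature luminal cells, where 6.78% of all genes were higher. Beside Vldlr these were the Src-family kinase Fyn (2.09 ± 0.35, limma adjusted p = 0.00358) and the integrin subunit Itga3 (1.49 ± 0.21, adjusted p = 0.00148), whose heterodimer with Itgb1 can bind reelin. Against luminal progenitors 2 of 16 were higher, where 3.6% of all genes were, namely Itga3 (1.78 ± 0.21, adjusted p = 0.00562) and the exchange factor Rapgef1 (1.29 ± 0.30, adjusted p = 0.0341). Of the other Itga3 probe sets one passed in both comparisons and one gave 0.44 and 0.28 without passing. The Rapgef1 call held in 13 of 23 fits that left out 1 array and was lost when the luminal progenitor arrays of both pregnancy days were left out, and the other Rapgef1 probe set gave 0.82 without passing. The list medians were 0.56 against mature luminal cells and 0.48 against luminal progenitors, beside -0.03 and 0.04 for all genes. Under the block over all arrays the counts were 8 and 5 of 16, while 20.3% and 14.6% of all genes passed there in either direction. In stem cells 0 of 16 passed in any of the 4 stage comparisons by limma, and 0 did under the block.

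Among the kinases and regulators around Camk4, the kinase subunit gene Camk2g was higher in stem cells. Of 25 listed genes 20 were on the array and 19 kept, of which 2 were higher in stem than in mature luminal cells and 1 was higher than in luminal progenitors, with none lower, where 6.78% and 3.6% of all genes were higher. Camk2g, a subunit of calmodulin-dependent kinase II, was higher by 1.39 ± 0.30 over mature luminal cells (limma adjusted p = 0.0134) and by 1.64 ± 0.30 over luminal progenitors (adjusted p = 0.013). Camk2d, another subunit, was higher by 1.12 ± 0.27 over mature luminal cells (adjusted p = 0.0239), and its other 6 probe sets did not pass. A second Camk2g probe set gave 0.87 and 1.54 without passing. Leaving out the stem array of day 16 lost both calls over mature luminal cells (adjusted p = 0.0587 for Camk2g and 0.088 for Camk2d), and leaving out the mature luminal array of that day lost both too. Camk2d was also lost without replicate 2 of the 3-week stem cells, without both arrays of large Gapdh excess, and with the block on the 14 numbered arrays. The activating kinase Camkk2 averaged 8.80 in stem cells, 7.495 in mature luminal cells and 8.13 in luminal progenitors and did not pass (adjusted p = 0.108 and 0.475). The CREB factor Creb1 was at 8.09, 8.23 and 8.63 in the same order, also without passing. The list medians were 0.39 and 0.60, beside -0.03 and 0.04 for all genes. Under the block over all arrays 6 and 4 of 19 passed, while 20.3% and 14.6% of all genes did.

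**Figure D5:**
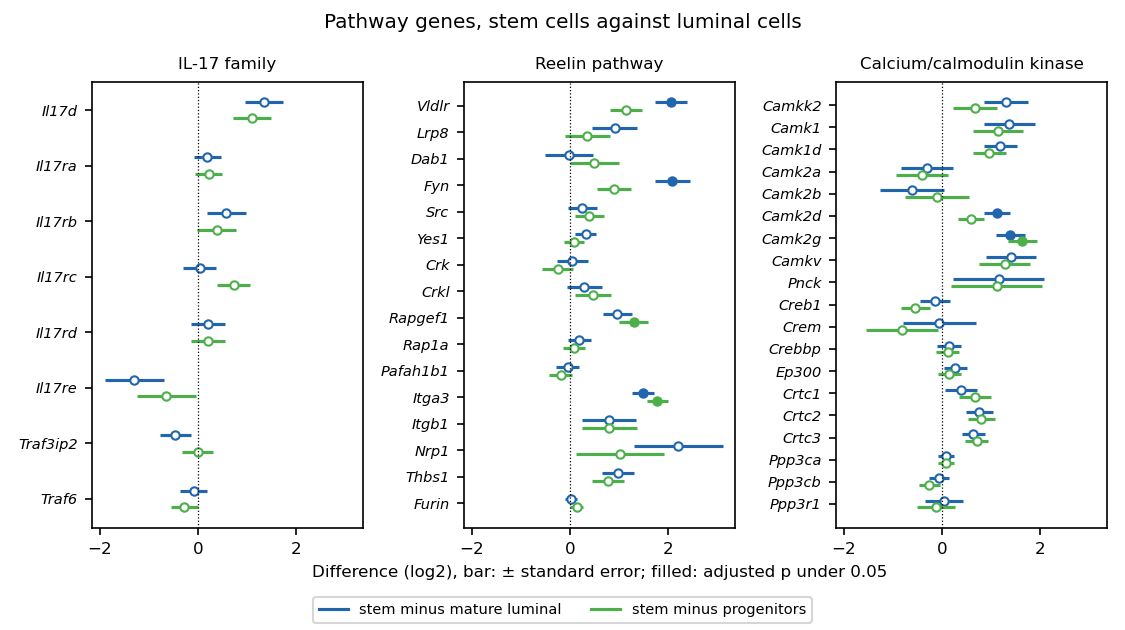
Differences of stem minus mature luminal cells and stem minus luminal progenitors in log2 units, with standard errors, for the 8 IL-17 family genes, 16 reelin pathway genes and 19 calcium/calmodulin kinase genes that passed the filter; filled points have a limma adjusted p under 0.05. Vldlr, Fyn, Itga3, Rapgef1, Camk2d and Camk2g carry the filled points, and no IL-17 family gene does.

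Camk4 is also known from T cells, and T cell and leukocyte markers were high on the 3-week mature luminal array that read 8.32 for Camk4. The 9 markers on the array averaged 6.82 there, with 6 above the array median, among them Ptprc (9.44), Cd3e (8.59) and Cd79a (9.19). The blood endothelial (7.89), lymphatic (8.13), stromal (7.55), pericyte (7.62) and adipocyte (6.18) means were also at their highest mature luminal value on that array. It had the largest Gapdh excess, 5.16, and the other Camk4 probe sets read only 3.92 to 5.56 on it. Over the 15 luminal arrays Camk4 correlated at 0.58 with the T cell and leukocyte mean, at 0.74 with the blood endothelial mean and at 0.71 with the adipocyte mean. On the 9-week mature luminal arrays the T cell and leukocyte markers averaged 3.96 and 4.53. On stem arrays the mean was 3.64 to 5.89, and on replicate 1 of the 9-week stem cells, where Camk4 was 6.20, it was 3.64. That array also had a luminal marker mean of 11.77, the highest of the stem arrays, where its replicate 2 had 9.75. The day-10 luminal progenitor array had the highest T cell and leukocyte mean of all, 7.17, with Camk4 at 5.18. Over the 8 stem arrays Camk4 correlated at 0.72 with this mean. No T cell or leukocyte marker was at 0 on any array, and the part of these cell types in the Camk4 values was not tested.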

How the data were processed

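The authors deposited log2 expression values for 45101 probe sets on 23 arrays, and the log2 scale was read from the values, which ran from 0 to 14.28 with array medians of 4.51 to 5.47. How the arrays were summarised and scaled before deposit is not stated in the labels, and between 1.24% and 2.33% of values on an array stood at the floor of 0, so differences from low values are no exact folds. Values were used as deposited. The platform annotation gave 34945 probe sets 1 symbol, 932 several and 9160 none. Each gene was read from its probe set with the highest mean and kept if 2 or more arrays had it above their own 40th percentile. The model, made in limma 3.58.1 under R 4.3.3, had 1 mean per combination of stage and cell type over all arrays (eBayes with trend, 7 residual degrees of freedom, two-sided, Benjamini-Hochberg over 15378 genes, threshold 0.05), so the 9 groups of 1 array were assumed to vary like the 7 pairs. Values after ± are standard errors. All 253 pairs of arrays differed in at least 98.5% of probe sets.

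Replicate numbers in the titles pair the arrays: deviations from the group means correlated above 0.1 in all 21 pairs of the 7 groups (0.303 to 0.682). The block was fitted on the 14 numbered arrays of these groups. It was also fitted over all 23 arrays, with each of 8 unnumbered arrays put with the number it correlated with better (5 with replicate 2). Some of these choices were close. The day-16 luminal progenitor array correlated at -0.066 with replicate 1 and -0.006 with replicate 2, and the retired breeder mature luminal array at 0.044 and -0.008. Calls under the block over all arrays depend on these choices.

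The genes, lists and markers were chosen with earlier results of these data known. Genes are named if they belong to a list, are among the 5 nearest to one of the 3 genes by correlation, or are among the 12 with the largest smallest stem difference; in each list every called gene is named, or the 3 with the smallest p. Precision is limited by the number of arrays.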

Additional observations from a re-analysis of the deposited data

How the results depend on the processing

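No call of Il17b, Reln or Camk4 was lost under any setting, since none was made. The paired analysis with the replicate block over all arrays made 1, Reln in mature luminal cells minus luminal progenitors (-2.40), and changed no other call of the 3 genes. With the block on the 14 numbered arrays, stem minus mature luminal cells moved to 6.63 for Reln, and Camk4 in mature luminal cells minus luminal progenitors turned to 0.38. Leaving out the 2 arrays with a large Gapdh excess moved Reln stem minus mature luminal cells to 6.93. Quantile normalization turned the retired breeder difference of Il17b to -0.03. Raising low values to the array median turned the interactions of Il17b and Reln to 0.83 and 0.08. Leaving out the luminal progenitor arrays of days 10 and 16, a setting added after seeing the data, turned Camk4 between the luminal types to 0.80. Other Camk4 probe sets gave stem minus luminal progenitors as 2.32, 2.29 and 2.55, and stem minus mature luminal cells as 2.65 and 2.12. One gave an interaction of -0.33, one -0.58 for day 10 in mature luminal cells, and one 0.16 between the luminal types, -2.57 for day 10, -0.51 for day 16, -1.62 for retired breeders, -0.18 for day 10 in mature luminal cells and an interaction of -2.39. The cause was not tested.

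Leaving out 1 array at a time, the difference between mature luminal cells and progenitors ran from -3.06 to -1.70 for Reln and from -1.16 to 0.57 for Camk4. Retired breeder differences ran from -0.64 to 1.07 for Il17b, -0.58 to 0.38 for Reln and -0.41 to 2.94 for Camk4. Day 10 in mature luminal cells ran from 1.73 to 5.37 for Il17b and from 0.23 to 4.07 for Reln. Camk4 in stem cells ran from -0.77 to 2.58 at day 10, from 0.26 to 3.61 at day 16 and from -3.63 to -0.28 at 9 against 3 weeks, and the interactions from -3.37 to 0.26 for Il17b, -2.69 to 1.15 for Reln and -1.39 to 1.96 for Camk4.

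Counts of genes called moved more. Over the leave-one-out fits they ran from 311 to 929 for stem minus luminal progenitors, 683 to 1696 for stem minus mature luminal cells, 0 to 63 between the luminal types, 0 to 18 for day 10, 0 to 9 for day 16 and 8 to 93 for day 10 in mature luminal cells. The lowest counts came without 3-week stem replicate 2 (311), the day-16 stem array (683), the day-10 luminal progenitor array (0), day-10 stem replicate 1 (0), 9-week stem replicate 1 (0) and day-10 mature luminal replicate 1 (8), in that order. The block over all arrays gave 2246, 3129, 126, 141, 94 and 506 in that order, with 32 for 9 against 3 weeks and 1 for the interaction. The block on 14 arrays gave 1744 for stem minus luminal progenitors, 2 between the luminal types, 32, 167 and 528 for 9 weeks, day 10 and day 10 in mature luminal cells, and 2 for the interaction. Raised low values gave 45 between the luminal types and 75, 22, 47 and 114 for 9 weeks, day 10, day 16 and day 10 in mature luminal cells. Between the luminal types quantile normalization gave 41, leaving out the Gapdh arrays 61 and leaving out the 2 luminal progenitor arrays 1. Without the intensity trend day 16 gave 4. Quantile normalization lowered the share of calls that were higher in stem cells to 69.2% from 82.2% against luminal progenitors. It moved the median of all genes to -0.07 from 0.04 in that comparison and to 0.13 from 0.35 for retired breeders.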
